A study of Mus musculus with 6 samples.

Results

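Leukocyte adhesion molecules on endothelium were followed here as 6 genes, Icam1, Icam2, Vcam1, Sele, Selp and Alcam, chosen by symbol among the 12623 genes of the deposited expression table. All 6 were present, each with 1 transcript row, and all 6 entered the test, which covered 12458 genes. RNA-seq had been done on sorted lung endothelial cells (EC) of infant and of young adult C57BL/6N mice, with 3 libraries per age and no treatment in either group. The design text of the record calls the 3 replicates of an age independent. The sorted population was CD31+ CD34+, after depletion of cells carrying leukocyte, lymphatic or erythroid surface markers. Values are RPKM, the reads on a transcript scaled by its length and by the mapped reads of the library, which allows levels to be compared between genes. Because it is a bulk measurement, fewer cells of a type and less RNA per cell cannot be told apart.

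Leukocytes leave the blood in steps. Selectins on the endothelial surface, P-selectin (Selp) and E-selectin (Sele), bind sugar structures on leukocytes and let them roll. Members of the immunoglobulin superfamily then hold them: ICAM-1 and ICAM-2 bind the leukocyte integrin LFA-1, and VCAM-1 binds the integrin VLA-4. ALCAM binds CD6 on T cells and also binds itself between neighbouring cells. In many tissues the genes of E-selectin, VCAM-1 and ICAM-1 are switched on by inflammatory cytokines through NF-kB, whereas ICAM-2 is present on resting endothelium. The lung differs from most organs in that many leukocytes are held in its capillaries, where rolling is less prominent.

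With age, Vcam1 and Selp rose, and the other 4 genes did not pass the test. Vcam1 was 5.23-fold and Selp 6.50-fold higher in young adult than in infant EC by the ratio of mean RPKM. Icam1 and Icam2, by far the most abundant of the 6, were 1.74-fold and 1.54-fold higher without passing the test. Sele was near the detection limit of the table at both ages, and Alcam was 1.79-fold higher in infant EC, also without passing. A gene was called when the Benjamini-Hochberg adjusted p of limma was under 0.05 with a difference of more than 0.81 on the log2(RPKM + 1) scale. By this rule 2 of the 6 genes were called, both higher in young adult EC, where 11.4% of all genes tested were called in either direction and 3.33% were called higher. The median log2 fold change of the 6 genes was 0.78, and that of all genes tested was -0.07.

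2 properties of the libraries touch every value below. First, the study's methods name female mice, but the infant libraries held Y-linked transcripts. Ddx3y was at 20.6, 16.5 and 21.9 RPKM in infant replicates 1, 2 and 3 and was listed at 0 in all 3 young adult libraries, and Eif2s3y, Kdm5d and Uty had the same pattern. Xist, which is transcribed from the inactive X chromosome, ranged from 7.6 to 8.7 RPKM in infant libraries and from 12.5 to 15.6 RPKM in young adult ones. The infant libraries therefore held RNA of male cells, and sex and age cannot be told apart in any comparison here. Second, infant replicate 2 stood apart. Its log2(RPKM + 1) values had correlations of 0.949 to 0.963 with the young adult libraries, against 0.897 to 0.912 for the other infant libraries, and results that rest on it are given with and without it.

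The promoter windows of 3 members are shown because they hold matches to the motifs searched, those of NF-kB, REL and AP-1 type sites and the TATA box. RefSeq windows (GRCm38.p6, 250 bases before to 50 after the start) were given for 4 of the 6 genes. Those of Icam1, Sele and Selp are on the plus strand and that of Alcam on the minus strand. Capitals mark matches, on either strand, to the NF-kB and REL motifs, each searched with its own pattern, and to TATAAA and TGANTCA (AP-1 type). Icam1 lies at chr9:21015690-21015989, Sele at chr1:164047984-164048283 and Selp at chr1:164115014-164115313. Unlike those of Icam1 and Selp, the Sele window does not hold the first base of its gene. It lies inside the gene span (164039614 to 164058487), so its start is an inner one.
Icam1: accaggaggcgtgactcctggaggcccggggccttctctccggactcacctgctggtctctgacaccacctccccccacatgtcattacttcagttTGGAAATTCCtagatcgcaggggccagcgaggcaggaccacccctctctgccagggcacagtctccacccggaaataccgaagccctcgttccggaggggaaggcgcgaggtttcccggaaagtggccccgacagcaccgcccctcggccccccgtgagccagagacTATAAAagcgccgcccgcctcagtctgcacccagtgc
Sele: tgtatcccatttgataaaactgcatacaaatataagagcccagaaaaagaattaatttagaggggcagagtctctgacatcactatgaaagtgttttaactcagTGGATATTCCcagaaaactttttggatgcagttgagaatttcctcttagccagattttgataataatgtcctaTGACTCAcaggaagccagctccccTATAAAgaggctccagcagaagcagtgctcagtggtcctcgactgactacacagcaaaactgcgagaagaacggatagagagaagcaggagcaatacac
Selp: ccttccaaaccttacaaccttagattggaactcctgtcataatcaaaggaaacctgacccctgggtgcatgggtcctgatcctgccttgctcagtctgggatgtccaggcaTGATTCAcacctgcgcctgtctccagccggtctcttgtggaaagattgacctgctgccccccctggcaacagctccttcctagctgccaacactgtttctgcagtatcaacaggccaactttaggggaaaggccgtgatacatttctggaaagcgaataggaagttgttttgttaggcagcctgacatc
The window of Icam1 held a REL match from -154 to -145 and TATAAA from 14 to 19, counted from the start. That of Sele held a REL match from -146 to -137, TGANTCA from -73 to -67 and TATAAA from -49 to -44. The window of Selp held TGANTCA from -139 to -133, and that of Alcam held no match. No match to the pattern named NF-kB was found in the 4 windows, which does not exclude NF-kB sites of another sequence. Rel belongs to the NF-kB family, so the REL matches of Icam1 and Sele are themselves possible NF-kB sites. Among 32817 RefSeq windows of the same length, 3.27% held a REL match, 8.46% an NF-kB match, 13.6% TATAAA and 7.81% TGANTCA. The 2 genes with a REL match, Icam1 and Sele, were not among those called with age. Vcam1, which was called, had no window, so the matches cannot be set against the calls.

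P-selectin is stored in Weibel-Palade bodies of EC and reaches the surface when these fuse with the membrane. Selp (chromosome 1, 164115264 to 164150026) was at 0.5, 0.4 and 0.5 RPKM in the infant libraries (replicates 1, 2 and 3) and at 3.2, 3.2 and 2.7 RPKM in the young adult ones. Every young adult value was above every infant value, a pattern seen in 3 of the 6 genes and in 16.4% of all genes tested. The means were 0.467 ± 0.0577 and 3.03 ± 0.289 RPKM (SD, n = 3 per age). On the log2(RPKM + 1) scale the difference was 1.46 ± 0.12 (SE, 95% confidence interval 1.18 to 1.74, limma adjusted p = 8.17e-04). The table gives 1 decimal, so the ratio of 6.50 could lie between 5.77 and 7.40 from rounding alone. Selp was thus a low transcript even in young adult EC, where 33.8% of the tested genes were lower. In infant EC 0.466% were lower. Selp reached the RPKM of 1 needed for the test only in young adult libraries. Its low place among tested genes in infant EC therefore follows in part from that filter.

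Platelets also carry P-selectin. The platelet genes Pf4, Ppbp, Itga2b and Gp9 each overlapped between the ages, with Pf4 at 1.5, 7.5 and 4.4 RPKM in the infant and at 3.6, 7.0 and 4.5 RPKM in the young adult replicates. By limma 0 of the 4 platelet markers tested were called and 0 had an unadjusted p under 0.05. Without infant replicate 2, Ppbp was called higher, with a difference of 1.06 (limma adjusted p = 0.0265). Ppbp was at 0.5, 3.9 and 1.7 RPKM in the infant and at 2.1, 4.2 and 3.6 RPKM in the young adult replicates. The part of platelets in the difference of Selp was not tested. The summed level of the 4 markers ranged from 4.70 to 16.3 RPKM in infant and from 7.40 to 14.2 RPKM in young adult libraries.

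E-selectin is a selectin that cytokines induce on endothelium. Sele (chromosome 1, 164039614 to 164058487) was at 0.5, 0.6 and 0.5 RPKM in infant and at 1.1, 1.1 and 0.2 RPKM in young adult libraries. The young adult values fell on both sides of the infant ones. The difference was 0.19 ± 0.23 on the log2(RPKM + 1) scale (SE, 95% confidence interval -0.36 to 0.73, limma adjusted p = 0.588), an interval that includes 0.

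**Figure D1:**
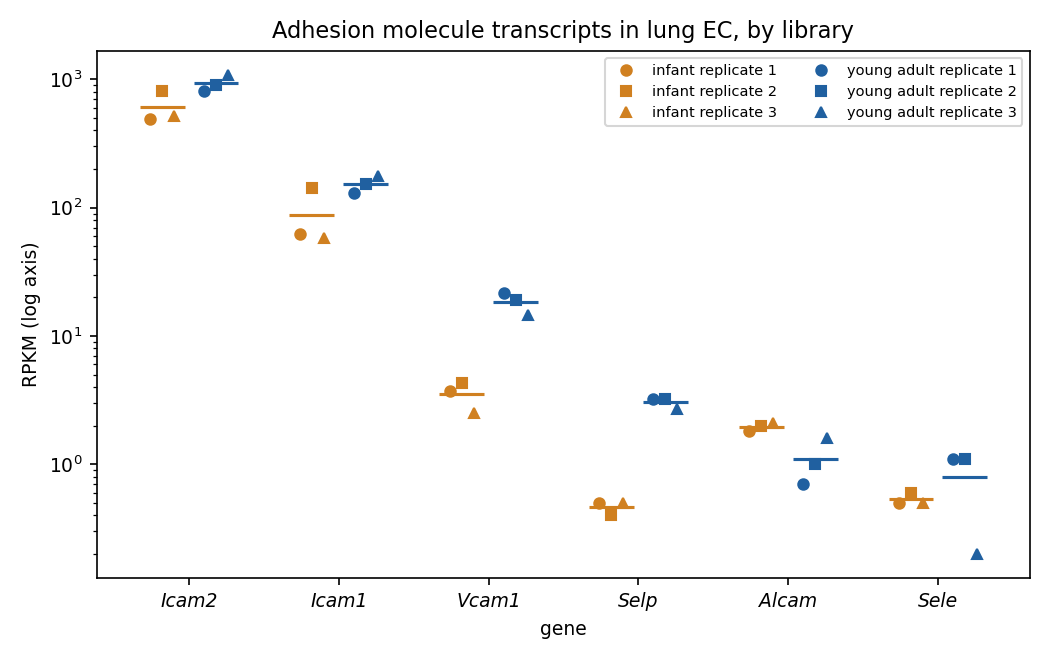
RPKM of the 6 adhesion genes in each library, with infant and young adult replicates as points and the group means as horizontal lines, on a log axis. Vcam1 and Selp separate by age (Vcam1 2.5 to 4.3 against 14.5 to 21.5 RPKM), while the 143.3 RPKM of Icam1 in infant replicate 2 lies among the young adult values.

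The plot of RPKM by library shows the spacing of the genes as well as the age difference. VCAM-1 is the endothelial ligand of the integrin VLA-4, the product of Itga4 and Itgb1. Vcam1 (chromosome 3, 116110020 to 116129688) was at 3.7, 4.3 and 2.5 RPKM in infant and at 21.5, 18.9 and 14.5 RPKM in young adult libraries. The lowest young adult library was more than 3 times the highest infant library. The means were 3.50 ± 0.917 and 18.3 ± 3.54 RPKM (SD, n = 3), and the difference was 2.10 ± 0.19 on the log2(RPKM + 1) scale (SE, 95% confidence interval 1.66 to 2.55, limma adjusted p = 9.98e-04). Vcam1 moved from above 32.7% of the tested genes in infant EC to above 77.3% in young adult EC.

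Fibroblasts and mural cells can also carry Vcam1 and their markers were lower in young adult libraries. Of 10 fibroblast and 10 mural markers, 9 each were called lower, and the summed fibroblast level ranged from 361 to 1320.1 RPKM in infant libraries and from 12.7 to 25.9 RPKM in young adult ones. Pdgfra was at 87.2, 2.6 and 66.8 RPKM in infant and at 0.2, 0.6 and 0.5 RPKM in young adult libraries. Vcam1 at 4.3 RPKM in infant replicate 2 lay above its values in the other infant libraries. Pdgfra and the summed fibroblast level were lowest among the infants there, but the fibroblast markers Dcn and Lum were highest there. The part of these cells in the level of Vcam1 was not tested. None of the listed markers that had a transcript row was at 0 in all libraries of a group. Other listed markers, among them Prox1, Cd3e and Itgam, had no row, so their level is not known here.

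ICAM-1 is the inducible ligand of LFA-1. Icam1 (chromosome 9, 21015940 to 21028814) was at 62.4, 143.3 and 58.2 RPKM in infant and at 129.3, 152.8 and 176.4 RPKM in young adult libraries. Infant replicate 2 lay inside the young adult range, so the ages overlapped. The means were 88.0 ± 48.0 and 153 ± 23.6 RPKM (SD, n = 3), and the difference was 0.90 ± 0.33 on the log2(RPKM + 1) scale (SE, 95% confidence interval 0.15 to 1.66, limma adjusted p = 0.0783). Without infant replicate 2 the infant mean was 60.3 RPKM, the difference was 1.32 (limma adjusted p = 3.61e-04) and Icam1 was called. With all 6 libraries kept, Icam1 was also called with array weights (limma adjusted p = 0.00610) and with median scaling (limma adjusted p = 0.0481). Whether Icam1 passed therefore depended on 1 library and on the processing.

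ICAM-2 is the constitutive ligand of LFA-1 on endothelium, and its gene was the most abundant of the 6. Icam2 (chromosome 11, 106377656 to 106388139) was at 489.8, 806.2 and 522.9 RPKM in infant and at 810.8, 898.2 and 1087.8 RPKM in young adult libraries. The ages did not overlap, but infant replicate 2 was only just below the lowest young adult library. The means were 606 ± 174 and 932 ± 142 RPKM (SD, n = 3), with a difference of 0.65 ± 0.24 on the log2(RPKM + 1) scale (SE, 95% confidence interval 0.10 to 1.20, limma adjusted p = 0.0824). Without infant replicate 2 the difference was 0.87 (limma adjusted p = 0.00549) and Icam2 was called. Icam2 was above 99.8% of the tested genes at both ages.

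Some markers of EC were also higher in young adult libraries. Of 16 endothelial markers 1 was called, Tek, which rose by 1.25 (limma adjusted p = 0.00712), and 7 were called higher without infant replicate 2, while Kdr, Erg and Sox17 differed by -0.01, -0.02 and -0.19 without passing. The summed level of the 16 markers, to which a few abundant genes such as Egfl7 contribute most, ranged from 3999 to 5970.3 RPKM in infant libraries and from 6555 to 6972 RPKM in young adult ones, with the highest infant value in replicate 2. When each library was rescaled to the same mean of these markers, an alternative chosen after seeing the data, Icam1 differed by 0.50 (limma adjusted p = 0.0969) and Icam2 by 0.23 (limma adjusted p = 0.328). Vcam1 still differed by 1.76 (limma adjusted p = 2.18e-04) and Selp by 1.24 (limma adjusted p = 0.00119). This scaling moved the median of all genes from -0.07 to -0.41, and relative to that median Icam1 was at 0.91, Icam2 at 0.65, Vcam1 at 2.17 and Selp at 1.65. The part of the share of EC in the differences of Icam1 and Icam2 was not tested otherwise.

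**Figure D2:**
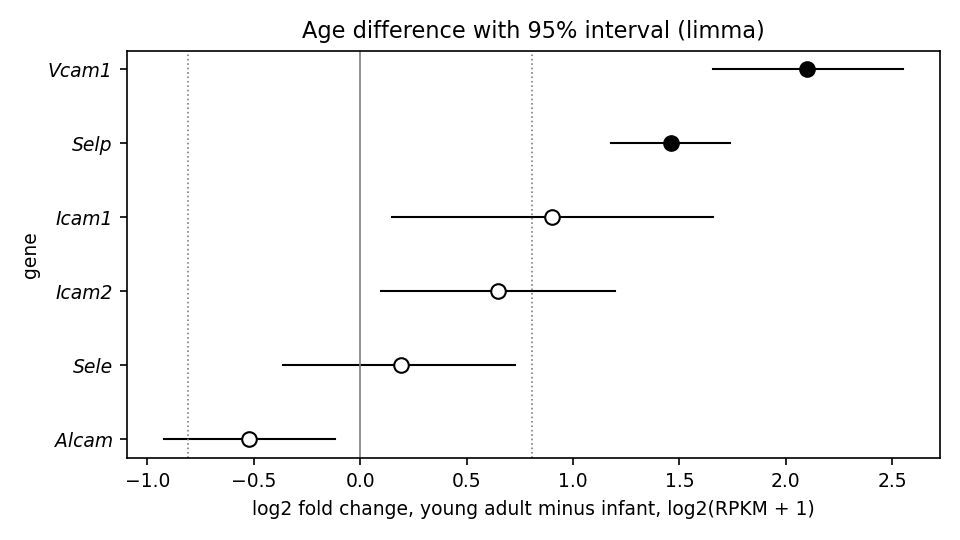
Difference between young adult and infant EC on the log2(RPKM + 1) scale for each of the 6 genes, as the limma estimate with its 95% confidence interval (filled points were called, dotted lines mark the fold threshold). The intervals of Vcam1 (1.66 to 2.55) and Selp (1.18 to 1.74) lie farthest from 0, and that of Sele (-0.36 to 0.73) includes it.

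ALCAM was the only member with a higher mean in infant EC. Alcam (chromosome 16, 52248996 to 52453081) was at 1.8, 2.0 and 2.1 RPKM in infant and at 0.7, 1.0 and 1.6 RPKM in young adult libraries. The ages did not overlap, which was so for 4 of the 6 genes and for 43.4% of all genes tested. The means were 1.97 ± 0.153 and 1.10 ± 0.458 RPKM (SD, n = 3), and the difference was -0.52 ± 0.17 on the log2(RPKM + 1) scale (SE, 95% confidence interval -0.92 to -0.12, limma adjusted p = 0.0609). Fibroblasts and epithelial cells can carry ALCAM. Fibroblast markers were higher in infant libraries. Of 11 epithelial markers, 4 were called lower and 1, Hopx, was called higher in young adult libraries. The summed epithelial levels overlapped (6522 to 11404 RPKM in infant libraries, 1847 to 8422 RPKM in young adult ones). In infant replicate 2, where the summed fibroblast level was the lowest of the infants, Alcam was at 2.0 RPKM, between the other infant libraries, and the part of other cells in its difference was not tested.

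The order of the levels was nearly the same at both ages. In infant EC it ran from Icam2 through Icam1, Vcam1, Alcam and Sele to Selp, and Sele and Selp overlapped. In young adult EC it ran from Icam2 through Icam1, Vcam1, Selp and Alcam to Sele, and Alcam and Sele overlapped. Icam2 exceeded Icam1 by 6.89-fold in infant and 6.10-fold in young adult EC by mean RPKM, and it made up 83.5% to 89.1% of the summed RPKM of the 6 genes in each library. Icam1 exceeded Vcam1 by 25.1-fold in infant EC and by 8.35-fold in young adult EC.

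The members were also set against each other within a library, as log2 ratios of RPKM + 1. That of Vcam1 to Icam1 was -3.75, -4.77 and -4.08 in infant and -2.53, -2.95 and -3.52 in young adult libraries. All young adult ratios were above all infant ones, at means of -4.20 ± 0.52 and -3.00 ± 0.49 (SD, n = 3), with an exact two-sided permutation p = 0.1, the smallest that 3 against 3 libraries allow. With a pseudocount of 5 the difference was 0.58 and the exact two-sided permutation p = 0.300. The log2 ratio of Icam1 to Icam2 averaged -2.86 ± 0.34 in infant libraries and -2.60 ± 0.05 in young adult ones (SD, n = 3), a difference of 0.26 with an exact two-sided permutation p = 0.400. The young adult libraries differed among themselves too: replicate 3 was the highest of them for Icam1 and Icam2 and the lowest for Vcam1, Selp and Sele.

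**Figure D3:**
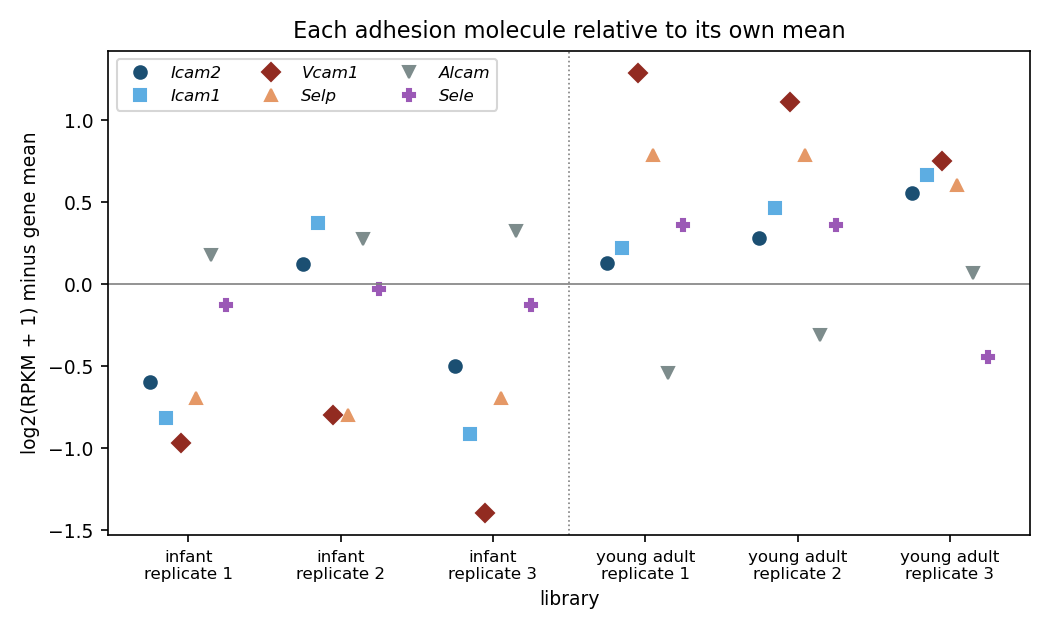
log2(RPKM + 1) of each adhesion gene minus its mean over the 6 libraries, by library, with 1 symbol per gene. In infant replicate 2 Icam1 and Icam2 lie near the young adult libraries, while Vcam1 (4.3 RPKM) and Selp (0.4 RPKM) stay at the infant level.

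Genes of Weibel-Palade bodies, the storage granules of P-selectin, were examined beside Selp. Of 14 tested, 4 were called higher and 1 lower (5 and 2 without infant replicate 2), and the median log2 fold change was 0.40. Vwf, the von Willebrand factor that forms the body of the granule, was at 33.8, 29.4 and 28.4 RPKM in infant and at 157.1, 128.1 and 103.8 RPKM in young adult libraries, a difference of 2.03 (limma adjusted p = 6.42e-04). Edn1, the precursor of the vasoconstrictor endothelin, rose by 1.53 (limma adjusted p = 0.00148), and Rab27a, a small GTPase of the granule, by 1.04 (limma adjusted p = 0.0154). Cd63, the tetraspanin of the granule membrane that holds P-selectin at the surface, fell by 1.90 (limma adjusted p = 0.0101). CD63 is present in the lysosomes of most cell types, and whether other cells contributed to its difference was not tested.

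Of the counter-receptors on leukocytes, 9 had a lower mean log2 value in young adult libraries and 1 a higher one. The latter was Itgb7 (0.14, limma adjusted p = 0.747). Of 10 tested, limma called 0 higher and 3 lower (0 and 6 at an unadjusted p under 0.05), and their median difference was -0.79 on the log2 scale. Itga4, the VLA-4 subunit that binds VCAM-1, was at 5.5, 4.3 and 5.4 RPKM in infant and at 0.8, 0.7 and 1.3 RPKM in young adult libraries, so it fell by 1.66 (limma adjusted p = 0.00104) where Vcam1 rose. Itga9 fell by 1.60 (limma adjusted p = 0.0358) and Cd44, a hyaluronan receptor, by 1.24 (limma adjusted p = 0.0269). The LFA-1 subunits Itgal and Itgb2 and the P-selectin ligand Selplg differed by -0.59, -0.98 and -0.51 without passing (limma adjusted p = 0.137, 0.181 and 0.117). Leukocyte markers were lower as well: 4 of 12 were called lower, their summed level ranged from 330.0 to 530.4 RPKM in infant libraries and from 143 to 564 RPKM in young adult ones, and their part in these values was not tested. Among the infant libraries, Itga9 (7.4, 1.7 and 9.2 RPKM) and Cd44 (33.8, 14.0 and 36.3 RPKM) were lowest in replicate 2. The summed fibroblast and mural levels, though not every marker, were lowest there too. The part of fibroblasts and mural cells was not tested either.

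Enzymes that build selectin ligands and proteins that anchor ICAM-1 and VCAM-1 showed no common direction. Of 11 enzymes, B3gnt3 was called higher (0.92, limma adjusted p = 0.0132), and Tpst1, a tyrosine sulfotransferase, and Chst2, a carbohydrate sulfotransferase, fell by 1.25 and 1.17 (limma adjusted p = 0.00446 and 0.00339). Of 13 anchors, 1 was called higher and 1 lower, the latter being Flna, a filamin that crosslinks actin, which fell by 1.32 (limma adjusted p = 0.0241). Ezr, which links ICAM-1 and VCAM-1 to actin, differed by -0.66 and stayed under the fold threshold, and its relative Msn differed by 0.25 (limma adjusted p = 0.166).

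The cytokine pathway that induces Sele, Vcam1 and Icam1 had 1 gene called. Of 28 receptors and NF-kB genes, limma called 0 higher and 1 lower, with a median of 0.06, and at an unadjusted p under 0.05 there were 7 higher and 2 lower. Without infant replicate 2, 2 were called higher and 1 lower, with a median of 0.17. The gene called was Il1rap, the accessory chain of the interleukin-1 receptor, which fell by 1.06 (limma adjusted p = 0.00236). Nfkbia, an inhibitor of NF-kB that NF-kB itself induces, was at 110.6, 203.8 and 86.2 RPKM in infant and at 189.8, 373.7 and 260.9 RPKM in young adult libraries and did not pass (limma adjusted p = 0.0570). Of 14 other cytokine-induced genes, 2 were called higher and 4 lower. Csf1 and Irf1 rose by 1.10 and 1.03 (limma adjusted p = 0.00572 and 0.00864), whereas the chemokines Cxcl1, Cxcl2 and Ccl2 fell by 2.21, 2.01 and 1.42 (limma adjusted p = 0.0126, 0.00429 and 0.0230). Genes known to respond to tissue dissociation were lower in young adult libraries too, with 8 of 16 called lower, and their part in the chemokine values was not tested.

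Other surface molecules of the adhesion cascade on EC had a median of 0.44, with 1 of 16 called, Bst1, which rose by 1.35 (limma adjusted p = 0.00127). Without infant replicate 2, 5 of the 16 were called, all higher. Among 6 genes of shedding and turnover, Mmp14 fell by 2.05 (limma adjusted p = 0.00197), and the sheddases Adam17 and Adam10 differed by -0.18 and -0.24 without passing (limma adjusted p = 0.240 and 0.0764). Fibroblasts also express Mmp14, and their markers were higher in the infant libraries.

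**Figure D4:**
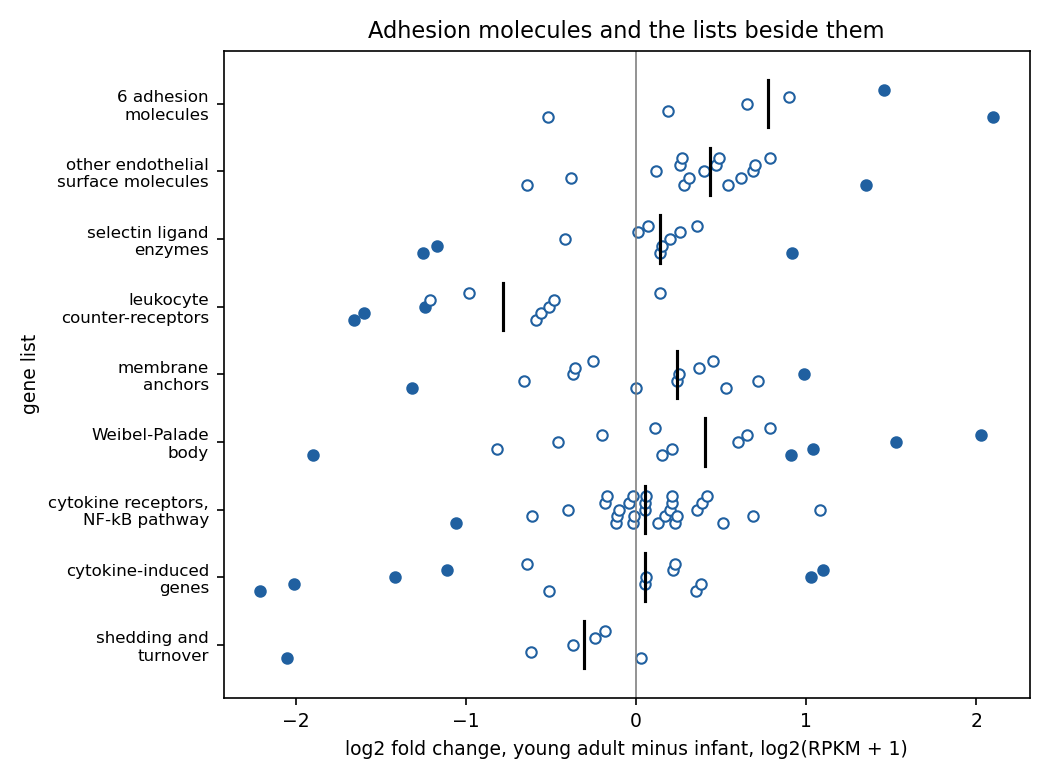
log2 fold change, young adult against infant, of the genes in each list beside the 6 adhesion genes, with 1 point per gene, filled where called, and a vertical line at each median. The 6 adhesion genes have a median of 0.78, the Weibel-Palade genes 0.40 and the leukocyte counter-receptors -0.79.

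P-selectin and VCAM-1 are found mainly on venules in many tissues, and venous markers moved in both directions. Of 5 tested, 2 were called higher and 2 lower. Slc6a2 was at 4.6, 3.7 and 3.0 RPKM in infant and at 45.6, 35.6 and 26.6 RPKM in young adult libraries (2.93, limma adjusted p = 4.55e-04), and Vwf is the other gene called higher. Nr2f2, a transcription factor of venous identity, fell by 1.55 (limma adjusted p = 0.0388), and Bgn fell by 2.04 (limma adjusted p = 0.0247). Among the infant libraries, Bgn (275.2, 64.7 and 268.0 RPKM) and Nr2f2 (12.7, 3.5 and 14.7 RPKM) were lowest in replicate 2. The summed fibroblast and mural levels were lowest there too, but the fibroblast markers Dcn and Lum were highest there. The part of fibroblasts and mural cells in these differences was not tested. The share of venous cells in the differences of Selp and Vcam1 was not tested.

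Likeness of pattern was measured as the root mean square difference between the values of log2(RPKM + 1) in the 6 libraries, each gene centred on its mean, over 6984 genes whose mean RPKM reached 5. The closest gene to Vcam1 was Vwf (0.169), followed by Lrrc32 (0.186) and Npr3 (0.212). The closest to Selp were Vegfa (0.111), Cyb5r1 (0.121) and Gm3934 (0.132). Icam1 was closest to Lims2 (0.101), Icam2 to Clic4 (0.0751), Sele to Palmd (0.114) and Alcam to Ptov1 (0.0546). These are descriptions over libraries that share the age contrast. The pseudocount of 1 shrinks the changes of Selp, Sele and Alcam, which are low, more than those of the genes compared. By mean RPKM Selp rose 6.50-fold, whereas Vegfa went from 6.20 to 17.0 RPKM, so the likeness holds on this log2 scale only.

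**Figure D5:**
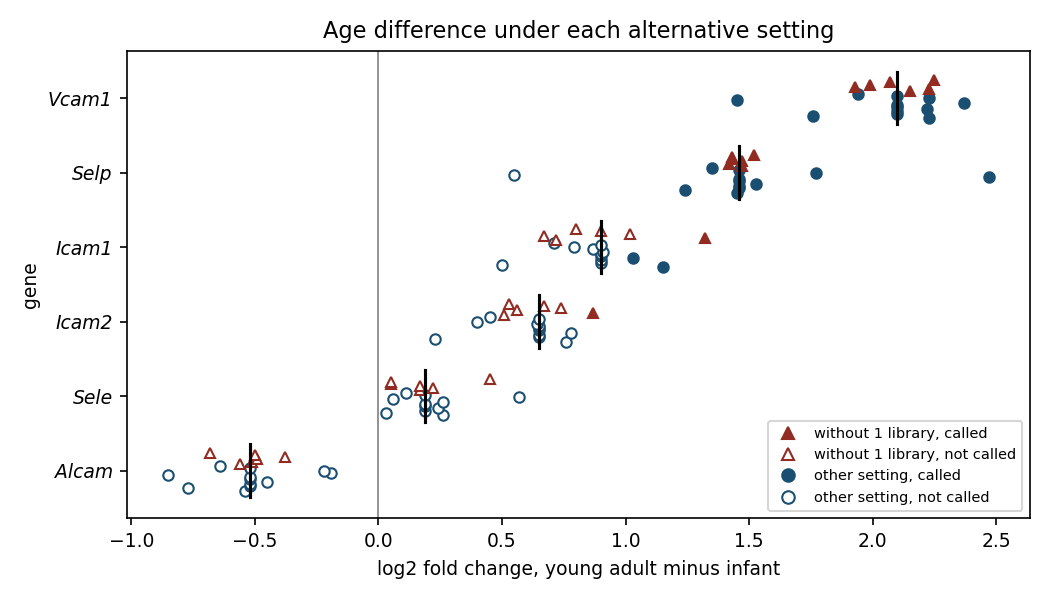
log2 fold change of each adhesion gene under each alternative processing, with 1 point per alternative (filled where called, triangles without 1 library) and a vertical line at the value reported. Vcam1 spans 1.45 to 2.37 and Selp 0.55 to 2.47, all above 0, and Alcam spans -0.85 to -0.19, all below it.

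The plot of alternatives gives the range that processing allows for each gene. No gene changed direction under the alternatives run. Vcam1 was called in all 18, and Selp in 17 of 18, the exception being a pseudocount of 5, which exceeds every value of Selp. Icam1 was called in 3, Icam2 in 1, and Sele and Alcam in 0.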

How the data were processed

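Poly(A)-primed, PCR-amplified cDNA libraries of sorted lung EC had been sequenced by the authors, aligned to mm10 with STAR and tested with DESeq2. The STAR version and the program behind the RPKM values are not given in the sources used here. The deposited table holds the authors' RPKM values, 1 column per library and 17241 RefSeq transcript rows, rounded to 1 decimal. The read depth of each library is not known from these values, so no counting interval is given. Abundant globin transcripts lower the RPKM of the other genes in a library. Globin took 3.41% to 23.5% of the summed RPKM in infant libraries and 0.307% to 0.487% in young adult libraries.

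Groups and replicates came from the library titles. The row with the highest mean RPKM was kept per gene (2842 genes had several), and 24 rows whose symbols had become dates were restored. Because the unit is RPKM, the count test was replaced by limma 3.58.1 (R 4.3.3, lmFit and eBayes with trend) on log2(RPKM + 1), with age as the only term, for genes that reached an RPKM of 1 in any library. This pseudocount understates the fold change of low genes. Calls used a Benjamini-Hochberg adjusted p under 0.05 and a difference over 0.81 on this scale. Exact permutation tests used scipy 1.17.1. The code was tested on simulated data.

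The 6 genes, the 8 pathway lists and the 14 marker lists were chosen with earlier results of these data known. The genes named were the 6 members, at most the 3 largest called rises and falls of each list, genes with a direct role for a member, the 3 genes most alike to each member and a few cell type markers. The Y-linked genes were named for their position, and some listed genes that the rule would name are not reported here. Positions are those of RefSeq GRCm38.p6, whose coordinates match mm10. Alternatives were the pseudocount, filter, scaling, transcript rows, trend, array weights, replicate block and leaving out each library.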

Additional observations from a re-analysis of the deposited data

How the results depend on the processing

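Over 19 alternatives, 0 of 107 log2 fold changes of the 6 genes and 0 of 16 log2 ratios reversed. With a pseudocount of 5, Selp differed by 0.55 and was no longer called, 1 of the 6 genes was called, and 578 genes were called in all. Icam1 was called at 1.15 with array weights and at 1.03 with median scaling. Rescaled without globin, Icam1 differed by 0.71 (limma adjusted p = 0.0777) and Icam2 by 0.45 (limma adjusted p = 0.162). Under quantile normalization Icam1 differed by 0.79 (limma adjusted p = 0.0948) and Icam2 by 0.40 (limma adjusted p = 0.0943). Leaving out 1 library gave 0.67 to 1.32 for Icam1, 0.51 to 0.87 for Icam2, 2 to 4 of the 6 genes called and 842 to 1874 genes called in all, with both highest values of Icam1 and Icam2 and the 4 calls reached without infant replicate 2. Counts of all genes called fell by over 1.5 times without infant replicate 1 (927), infant replicate 3 (949), young adult replicate 1 (842) or young adult replicate 2 (867). The adjusted p alone called 3176 genes, and scaling by endothelial markers, chosen after seeing the data, called 2255. Sele had no value under a filter on mean RPKM.

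Same-numbered libraries did not deviate together (correlations 0.0282, -0.110 and -0.0208). With 3 libraries per age this cannot exclude pairing, and the library titles do not state any. With a replicate block, Vcam1 differed by 2.10 (limma adjusted p = 0.00341) and Selp by 1.46 (limma adjusted p = 0.00793), 2 of the 6 genes were called, and 1371 genes were called in all. The depth behind each RPKM is not known here, and values under 1 RPKM, such as Sele and infant Selp, carry a rounding step of 0.1.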

Other observations

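General capillary markers outside the adhesion cascade also differed with age. All 8 general capillary markers had a higher mean log2 value in young adult EC and 5 were called, among them Ptprb, which rose by 1.18, Gpihbp1 by 1.17 and Kit by 1.11 (limma adjusted p = 0.00602, 0.0137 and 0.00864). Of the 8 aerocyte markers limma called 0, and 3 were lower at an unadjusted p under 0.05. Of 8 arterial markers, 5 had a higher and 3 a lower mean log2 value, and 1 was called, Gja5, which fell by 1.08 (limma adjusted p = 0.0112). Lyve1, a lymphatic marker whose protein was used to deplete cells before the sort, was at 68.6, 171.4 and 82.7 RPKM in infant and at 396.4, 307.9 and 252.9 RPKM in young adult libraries (1.65, limma adjusted p = 0.0132). The other 3 lymphatic markers tested, Pdpn, Flt4 and Ccl21a, differed by -0.56, -0.30 and -0.27 without passing.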
